A study of Mus musculus with 4 samples.

Results

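Immediate early genes are switched on within minutes of a stimulus without new protein synthesis, and 10 of them are described here in the immune cells of a mouse glioma. The genes were Fos, Fosb, Jun, Junb, Egr1, Ier2, Dusp1, Atf3, Nr4a1 and Nr4a2, taken by symbol from the 31253 genes listed in the files, and all 10 were found. Live CD45+ cells had been sorted from the tumor-bearing hemisphere of 4 WT mice and of 4 CaMKK2 KO mice. That was day 14, after 50000 CT2a glioma cells had been placed in the brain. WT mice were C57Bl/6, and the study's methods place its transgenic lines on that background too, by origin or by backcrossing. CaMKK2 KO mice lack CaMKK2, a calcium and calmodulin dependent kinase kinase, in every cell of the host. The tumor cells did not carry the deletion. Both groups were age-matched females by the study's methods, and the labels give no age. Tumors were digested enzymatically for 15 min at 37 °C before sorting. The 4 mice of a genotype carried different hashtags, by which they are numbered here, and shared 1 channel of the 10X platform, so genotype and channel cannot be told apart.

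Several families carry this early response. Fos, Fosb, Jun and Junb pair up as the transcription factor AP-1, and Atf3 is a related bZIP factor that is induced by stress and mostly represses. Egr1 is a zinc finger transcription factor, Nr4a1 and Nr4a2 are orphan nuclear receptors whose activity is set largely by how much is made, Dusp1 is a phosphatase that switches off MAP kinases, and Ier2 is a nuclear protein. Their promoters respond to SRF with its Elk partners downstream of MAP kinases and to CREB, which the calcium kinases CaMKK2 and CaMKIV can activate, and cutting and warming a tissue also induces them. In blood, Nr4a1 is known as the factor that non-classical monocytes depend on.

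The counts are unique molecular identifiers (UMIs) from the 3′ end of transcripts, with 5271 WT and 5796 CaMKK2 KO cells kept. Cells were put into classes by marker genes, and a class name stands for the cells that pass its gate alone or in a set combination. Monocyte-TAM are cells that pass the gates of both classical monocytes and tumor associated macrophages (TAM). Cells passing the gates of microglia and TAM, with or without that of classical monocytes, count as microglia. TAM markers averaged 28739 CPM in microglia and 21435 CPM in TAM of WT mice. Cells in both monocyte gates count as non-classical. Those in the gates of type 2 and another kind of dendritic cell count as the other, and those of neutrophils and classical monocytes as neutrophils. Of 47 further marker genes that the gates did not use, 33 were highest in their own class and 14 were not. Within a class the UMIs of a mouse were added up and a gene is given in counts per 1000000 of that sum (CPM), so that a mouse is the replicate. These sums ranged from 87316 UMIs of a mouse in B cells to 7611166 in TAM, and from 13 cells of a mouse in non-classical monocytes to 437 in TAM. A lower sum cannot say whether fewer cells of a gate expressed a gene or each cell held less of it. WT mouse 1 had 22 classical monocytes, 13 non-classical monocytes and 31 T cells, the fewest of any mouse in each. Both libraries shared 42 barcode sequences, of which 8 were kept in both. Camkk2 itself was at 28.2 to 38.2 CPM in WT against 13.8 to 23.6 CPM in CaMKK2 KO mice over the 9 main classes (exact two-sided permutation test, p = 0.0286, the smallest that 4 against 4 can give). Which exons are deleted is not given in the sources used here, and 3′ counts outside them check nothing.

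The 250 bases upstream of the RefSeq start are shown for Nr4a1, Nr4a2 and Atf3, which differed between genotypes, for Fos, which did not pass the test in any class, and for Dusp1, the one member whose window held a full cyclic AMP response element (CRE, the CREB site). Capitals mark the short CRE (the core TGACG on either strand), and in Dusp1 the full CRE (TGACGTCA) that overlaps it. RefSeq held such a window for 8 of the 10 members on build GRCm38.p6, all but Egr1 and Ier2.
Nr4a1: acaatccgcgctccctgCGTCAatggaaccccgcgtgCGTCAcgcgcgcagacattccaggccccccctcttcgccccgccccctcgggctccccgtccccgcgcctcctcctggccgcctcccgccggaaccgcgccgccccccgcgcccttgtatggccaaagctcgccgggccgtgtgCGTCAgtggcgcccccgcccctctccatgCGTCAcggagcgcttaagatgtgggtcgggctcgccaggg
Nr4a2: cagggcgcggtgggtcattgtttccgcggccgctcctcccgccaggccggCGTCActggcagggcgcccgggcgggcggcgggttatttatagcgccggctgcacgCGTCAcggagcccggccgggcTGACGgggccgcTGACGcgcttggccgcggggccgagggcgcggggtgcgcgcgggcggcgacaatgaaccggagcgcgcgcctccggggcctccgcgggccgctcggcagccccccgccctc
Atf3: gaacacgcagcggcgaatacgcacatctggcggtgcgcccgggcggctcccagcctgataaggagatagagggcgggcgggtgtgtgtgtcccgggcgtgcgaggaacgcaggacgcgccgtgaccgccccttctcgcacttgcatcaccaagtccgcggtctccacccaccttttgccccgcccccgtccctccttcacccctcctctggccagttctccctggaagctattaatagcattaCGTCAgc
Fos: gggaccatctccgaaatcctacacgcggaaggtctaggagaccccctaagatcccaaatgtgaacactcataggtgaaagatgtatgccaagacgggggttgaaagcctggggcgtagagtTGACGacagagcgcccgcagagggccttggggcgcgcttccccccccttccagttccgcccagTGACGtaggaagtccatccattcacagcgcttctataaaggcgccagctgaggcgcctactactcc
Dusp1: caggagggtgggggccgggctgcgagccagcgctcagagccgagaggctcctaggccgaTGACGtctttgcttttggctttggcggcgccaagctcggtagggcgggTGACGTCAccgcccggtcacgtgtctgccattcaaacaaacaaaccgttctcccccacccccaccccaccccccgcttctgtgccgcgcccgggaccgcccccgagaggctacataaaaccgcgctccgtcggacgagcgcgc

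The windows lie at chr15:101266596-101266845 on the plus strand, chr2:57124004-57124253 on the minus strand, chr1:191183334-191183583 on the minus strand, chr12:85473640-85473889 on the plus strand and chr17:26508473-26508722 on the minus strand. For Nr4a2 and Fos they end where the GENCODE gene begins (chr2:57106830-57124003 and chr12:85473890-85477273). The windows of Nr4a1, Atf3 and Dusp1 lie inside longer GENCODE genes (chr15:101254269-101274795, chr1:191170296-191218039 and chr17:26505590-26562128), and 3′ counts do not show which start was used. The short CRE was found 233, 213, 69 and 40 bases upstream of the start in Nr4a1, and 200, 144, 123 and 111 bases upstream in Nr4a2. Atf3 held it 7 bases and Fos 129 and 66 bases upstream. Fosb, Junb and Dusp1 held it too, so that 7 of the 8 windows had it, against 17.8% of all 32851 RefSeq windows of this length. The full CRE was in 1.55% of all windows. None of the 8 windows held the AP-1 site (TGACTCA or TGAGTCA, in 4.46% of all windows), the CArG box that SRF binds (1.47%) or the NR4A site NBRE (AAAGGTCA, 1.34%), each searched on both strands. A match is a run of letters and not a measured site.

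Levels were ranked over the 9 main classes, each with at least 10 cells in each of the 8 mice. Among these, microglia, the resident macrophages of the brain, and monocytes held the highest levels of most members. Neutrophils, basophils, type 1 dendritic cells (DC1), mature dendritic cells (mature DC) and plasmacytoid dendritic cells (pDC) had fewer cells in at least 1 mouse and were not ranked. Averaged over the 8 mice, Fosb (886 CPM), Jun (2932 CPM), Junb (2098 CPM), Egr1 (1408 CPM) and Ier2 (673 CPM) were highest in microglia, and Fos (2962 CPM), Dusp1 (1724 CPM) and Atf3 (508 CPM) in classical monocytes. Nr4a1 was highest in non-classical monocytes (715 CPM). Nr4a2 departed from this order, with T cells at the top (153 CPM) and B cells at the bottom (9.25 CPM). Lymphocytes sat at the bottom of the 9 ranked classes for most others. NK cells were lowest for Fos, Fosb, Junb, Egr1 and Nr4a1, T cells for Jun and Atf3, and B cells for Dusp1. Ier2 was lowest in TAM (146 CPM). The span from the highest to the lowest of the 9 classes was 2.91-fold for Junb, 19.2-fold for Egr1 and 41.0-fold for Atf3. Atf3 averaged 12.4 CPM in T cells. Unranked neutrophils had at most 13 cells of a mouse and 0 in WT mouse 3. They averaged above the top class for Fos (3611 CPM), Junb (5878 CPM), Dusp1 (3369 CPM) and Ier2 (963 CPM). CaMKK2 KO mouse 1, at 15631 CPM for Junb, rests on 1 cell and counts equally in these means. For the other members neutrophils lay below the top class. Basophils had at most 5 cells of a mouse. The 10 members together made up 2.11 to 5.23% of their UMIs in WT and 0.391 to 2.59% in CaMKK2 KO mice. In microglia this share was 1.22 to 1.52% and 1.03 to 1.29%. Mature DC stood above T cells for Nr4a2 (155 CPM) and below NK cells for Fosb (239 CPM), Egr1 (21.4 CPM) and Nr4a1 (46.5 CPM). The pDC lay below the lowest class for Junb (560.3 CPM) and Dusp1 (117 CPM), and barely so for Nr4a1 (64.8 CPM, against 65.0 CPM in NK cells).

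**Figure D1:**
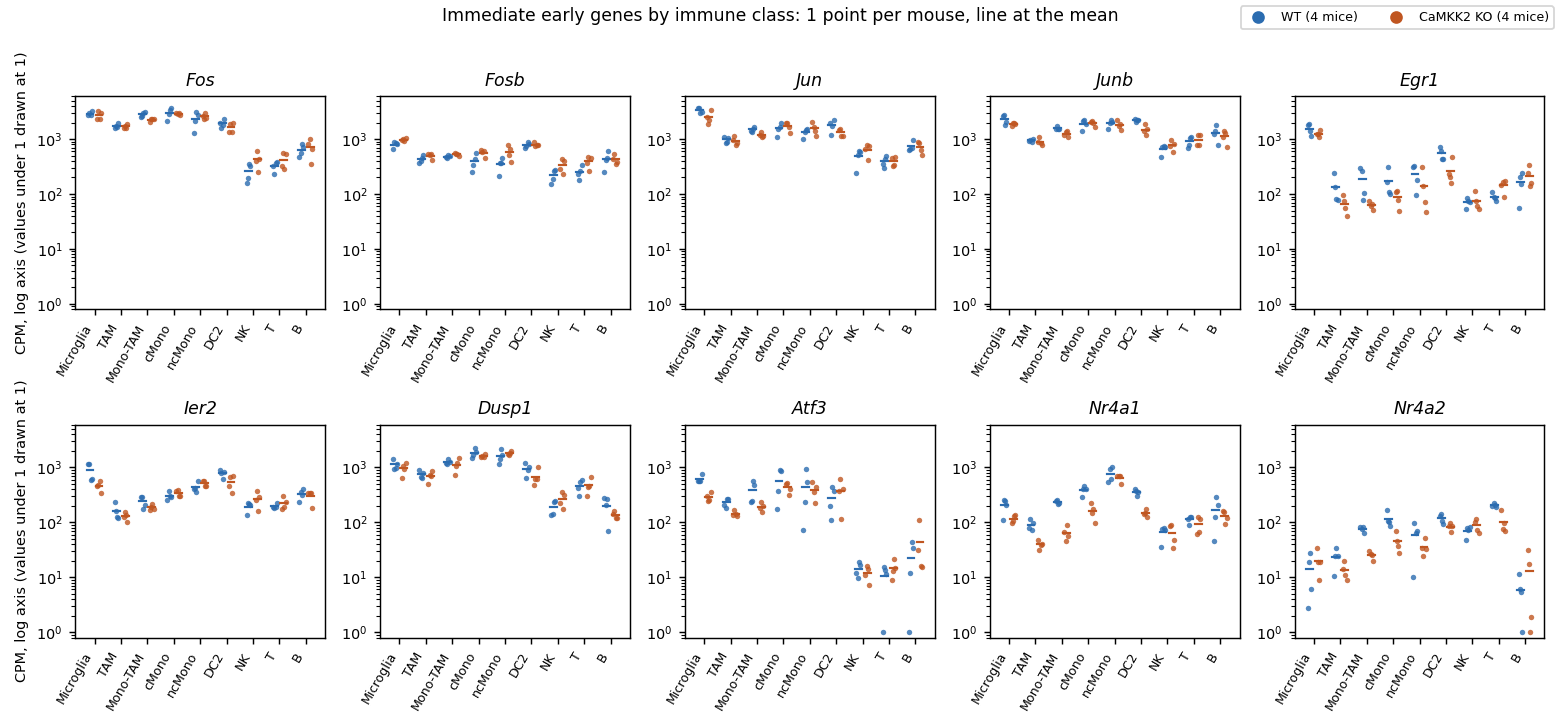
Level of each of the 10 genes in 9 immune classes, in CPM on a log axis, with 1 point per mouse (WT blue, CaMKK2 KO orange) and a line at the mean of the 4 mice. Egr1 stands at 1408 CPM in microglia against 406 CPM in DC2, the next class, and Nr4a1 at 715 CPM in non-classical monocytes against 275 CPM in classical monocytes.

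Each member's classes were ranked by mean level, and each class was compared with the next one down, 80 pairs in all. A two-sided exact sign-flip permutation test over the 8 mice found a difference in 13 of the 80 pairs (adjusted p = 0.0481 for each, with all 8 mice in 1 direction, the smallest p being 0.0078). Egr1 was 3.47-fold higher in microglia than in DC2, the gate of type 2 dendritic cells. Nr4a1 was 2.60-fold higher in non-classical than in classical monocytes. Atf3 was 1.52-fold higher in Monocyte-TAM than in TAM and 5.68-fold higher in TAM than in B cells, the next class down. TAM also stood above the next class for Fos (2.56-fold over B cells), Jun (1.32-fold over B cells) and Dusp1 (1.54-fold over T cells), and below Monocyte-TAM for Jun (1.40-fold). The remaining differences were Fos in B over T cells (1.80-fold), Fosb in DC2 over Monocyte-TAM (1.56-fold), Ier2 in non-classical over classical monocytes (478 and 324 CPM), and Dusp1 in microglia over DC2 (1.30-fold) and in T over NK cells (2.04-fold). No neighbours differed beyond their spread for Junb or Nr4a2, so that the first place of T cells for Nr4a2 over DC2 (101 CPM) rests on 6 of 8 mice (adjusted p = 0.156). The top class was not fixed for every gene: without any 1 of the 4 WT mice Dusp1 was highest in non-classical monocytes, and without WT mouse 1, WT mouse 2 or CaMKK2 KO mouse 3, or with outlying cells kept, Ier2 was highest in DC2. With a stricter gate Fos was highest in microglia. The top class also differed between the genotype means of 4 genes. Atf3 was highest in microglia of WT (616 CPM, against 578 CPM in classical monocytes) and in classical monocytes of CaMKK2 KO mice (438 CPM, against 287 CPM in microglia). In CaMKK2 KO mice Junb was highest in classical monocytes (1942 CPM, against 1883 CPM in microglia), Ier2 in DC2 (538 CPM, against 462 CPM in microglia) and Dusp1 in non-classical monocytes (1833 CPM, against 1603 CPM in classical monocytes).

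Between genotypes, 3 of the 10 genes differed, all lower in CaMKK2 KO mice: Nr4a1 in TAM, Monocyte-TAM, classical monocytes and DC2, Nr4a2 in Monocyte-TAM, classical monocytes and T cells, and Atf3 in microglia and TAM. These were 9 calls in 95 tests, from the quasi-likelihood test of edgeR fitted to all genes of a class with Benjamini-Hochberg adjustment, which is the test behind every adjusted p between genotypes here. No member was called higher, where 9 of the 95 tests had an unadjusted p under 0.05 with a positive value and DESeq2 called 0. Over the tests of all genes in these classes, 0.818% were called lower and 0.901% higher, so that 0 of 95 higher is near that share. In all 9 calls, each CaMKK2 KO mouse lay below each WT mouse (exact two-sided permutation test, p = 0.0286, the smallest possible). The groups did not overlap in 8 of the 86 uncalled tests either, in 7 with the CaMKK2 KO mice below. How often the groups separated among all genes was not counted, so neither count sets the members apart. The other 5 pairs of gene and class had under 200 UMIs and were not tested. The background, the share of all genes called lower in CaMKK2 KO mice, was 1.47% in TAM, where 2 of 10 members were called. It was 0.983% in Monocyte-TAM and 0.916% in classical monocytes, each with 2 of 10 members, 0.46% in DC2 and 0.503% in T cells, each with 1 of 10, and 0.75% in microglia, with 1 of 9. In the other classes no member was called, against 0.633% of genes called in either direction in non-classical monocytes, 2.87% in NK cells, 0.912% in CD8 T cells and 0.165% in B cells. At an unadjusted p under 0.05 these had 1, 3, 3 and 0 members in that order, and DESeq2 called 1, in CD8 T cells. Of all genes, 316 of 2845, 1283 of 6663, 783 of 4713 and 254 of 1215 had such a p there, in either direction. In TAM it was 1876 of 8907, in microglia 948 of 5869, in Monocyte-TAM 1045 of 6715 and in classical monocytes 1032 of 6444. DC2 had 576 of 3912 and T cells 1131 of 6764. Members with such a p in these classes numbered, in that order, 3 of 10, 6 of 9, 7 of 10, 4 of 10, 6 of 10 and 3 of 10. DESeq2 called 2, 1, 4, 2, 3 and 1 members there. The counts of all genes are the background for all unadjusted counts within classes given here for members and lists. The split of all called genes depended on scaling: 131 were lower and 76 higher in TAM, against 82 and 104 with TMM scaling. It went from 44 and 41 to 32 and 50 in microglia, from 60 and 131 to 70 and 81 in NK cells, from 34 and 46 to 92 and 40 in T cells and from 24 and 19 to 45 and 17 in CD8 T cells. The median gene of microglia lay at a log2 fold change of -0.11 by total counts and near 0 with TMM.

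**Figure D2:**
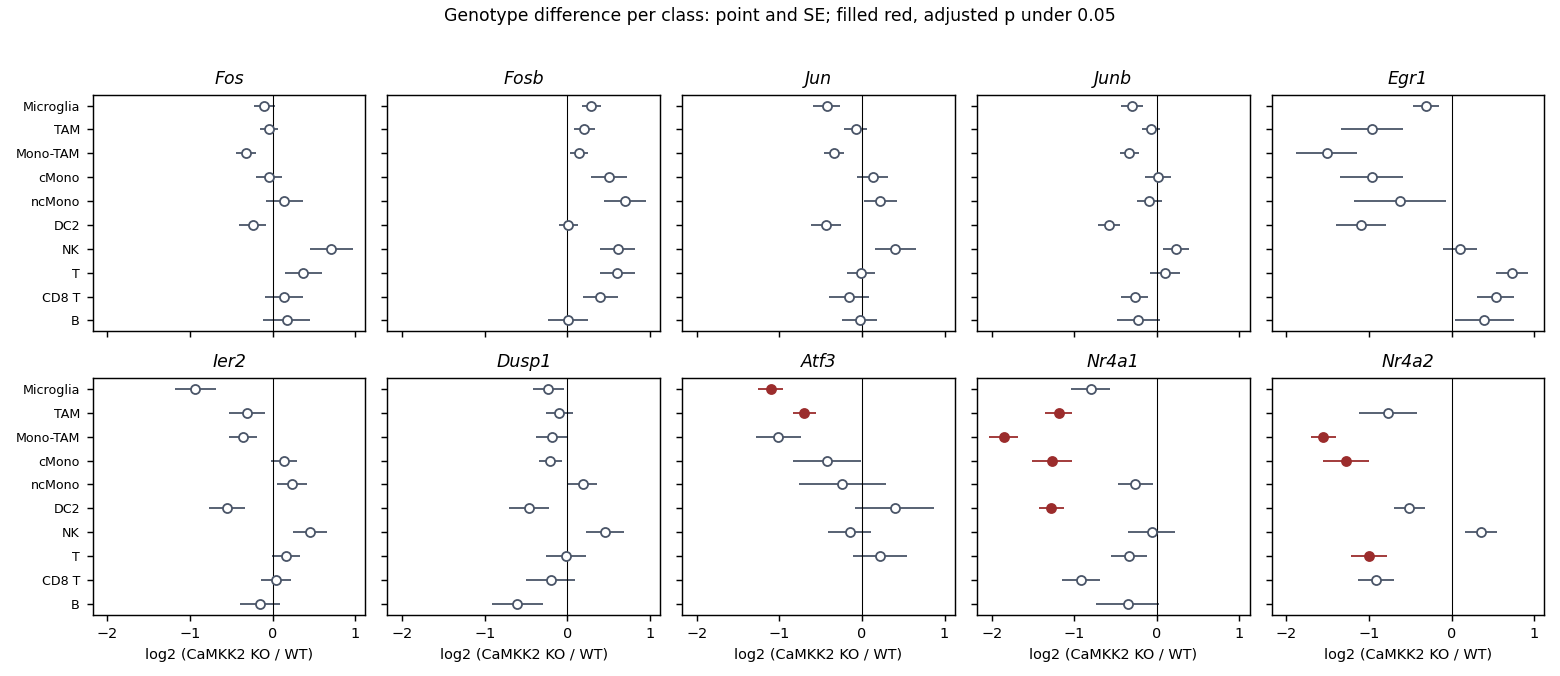
Difference between genotypes for each of the 10 genes in 10 immune classes, as log2 of CaMKK2 KO over WT with its SE from edgeR. Filled red points mark the 9 values with an adjusted p under 0.05, for Atf3, Nr4a1 and Nr4a2, all to the left of 0. Open points were not called, and a class without a point was not tested.

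Nr4a1, an orphan nuclear receptor, had its largest difference in Monocyte-TAM. It stood at 241, 253, 217 and 226 CPM in WT mice 1 to 4 and at 67.3, 46.2, 88.3 and 57.2 CPM in CaMKK2 KO mice 1 to 4. The groups did not overlap, and the highest CaMKK2 KO mouse was far below the lowest WT mouse. The mean fell from 234 ± 16.1 to 64.8 ± 17.9 CPM (SD, n = 4), a log2 fold change of -1.85 (SE 0.177, adjusted p = 0.000192). In DC2 the WT mice had 404, 372, 305 and 359 CPM and the CaMKK2 KO mice 141, 146, 173 and 128 CPM, giving a log2 fold change of -1.28 (SE 0.148, adjusted p = 0.00134). Here too each CaMKK2 KO mouse was below the WT mice. In TAM, where Nr4a1 was low, the WT mice had 80.1, 113, 73.1 and 97.1 CPM and the CaMKK2 KO mice 47.7, 31.4, 39.5 and 39.8 CPM, giving a log2 fold change of -1.19 (SE 0.166, adjusted p = 0.00581). These 3 calls held in each of the 8 fits that left out a mouse. In classical monocytes Nr4a1 stood at 284, 399.7, 453 and 412 CPM in WT against 223, 151, 178 and 97.4 CPM among CaMKK2 KO mice, for a log2 fold change of -1.27 (SE 0.243, adjusted p = 0.0276). That call was lost without WT mouse 2 (adjusted p = 0.108), WT mouse 3 (0.0683), WT mouse 4 (0.0687) or CaMKK2 KO mouse 2 (0.104).

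Non-classical monocytes, the class with the most Nr4a1, showed no such gap, with 552, 921, 610.2 and 1023 CPM in WT against 702, 695, 713 and 503 CPM in CaMKK2 KO mice, so that the groups overlapped (adjusted p = 0.716). In microglia all but 1 WT mouse stood above the CaMKK2 KO mice (112, 258, 246 and 211 against 96.8, 107, 128 and 139 CPM), with a log2 value of -0.80 that missed the threshold (adjusted p = 0.124). Among CD8 T cells, where NR4A receptors are known from exhaustion, Nr4a1 was at 62.5 ± 16.6 CPM in WT against 35.3 ± 11.4 CPM among CaMKK2 KO mice (adjusted p = 0.0756). NK cells (66.0 ± 20.6 and 64.1 ± 26.8 CPM), all T cells (115 ± 17.1 and 92.7 ± 32.3 CPM) and B cells (167 ± 105 and 132 ± 29.9 CPM) overlapped between genotypes.

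Nr4a2, the close relative of Nr4a1, differed in 2 of the same myeloid classes. In Monocyte-TAM it stood at 81.0, 76.0, 83.2 and 63.6 CPM in WT against 29.9, 26.7, 25.9 and 19.7 CPM among CaMKK2 KO mice, for a log2 fold change of -1.56 (SE 0.152, adjusted p = 0.00021). The groups were far apart, with little spread inside either. That call held without any 1 mouse but not with a stricter gate (adjusted p = 0.0672). In classical monocytes the WT mice had 166, 107, 100.4 and 87.6 CPM and the CaMKK2 KO mice 69.4, 46.2, 36.4 and 28.1 CPM, giving a log2 fold change of -1.28 (SE 0.279, adjusted p = 0.0445). WT mouse 1, highest among them, rests on 22 cells, and the call was lost without it (adjusted p = 0.0632). Leaving out any other mouse but CaMKK2 KO mouse 1 ended it as well (WT mice 2, 3 and 4, 0.135, 0.0814 and 0.0693; CaMKK2 KO mice 2, 3 and 4, 0.127, 0.0753 and 0.107). It also missed with outlying cells kept (0.0502) and with a stricter gate (0.0723).

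In T cells Nr4a2 stood at 199.9, 223, 209 and 189 CPM in WT against 165, 74.8, 96.9 and 69.7 CPM among CaMKK2 KO mice, for a log2 fold change of -1.0 (SE 0.219, adjusted p = 0.0471). CaMKK2 KO mouse 1 was close to the WT mice and the other 3 were well below. The call was lost with limma on mean CPM of cells (adjusted p = 0.0882) and without any 1 mouse other than CaMKK2 KO mouse 1 (0.057, 0.106, 0.119 and 0.113 without WT mice 1 to 4, and 0.126, 0.0825 and 0.0984 without CaMKK2 KO mice 2 to 4). CD8 cells, which carried more Nr4a2 than T cells as a whole, were 45.2 to 66.7% of T cells in WT and 20.9 to 55.0% in CaMKK2 KO mice (exact permutation test, p = 0.0857), and the part of this mix in the call was not tested. Within CD8 T cells Nr4a2 was at 347, 270.3, 249 and 265 CPM in WT against 219, 91.1, 141 and 97.4 CPM in CaMKK2 KO mice, without overlap, and missed the threshold (log2 fold change of -0.91, adjusted p = 0.0701). In TAM it was low, at 23.7 ± 9.85 and 13.4 ± 4.74 CPM, and in NK cells it was at 70.2 ± 15.8 and 89.6 ± 24.4 CPM, both overlapping.

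Atf3 was called in microglia and in TAM. In microglia it stood at 565, 562, 579 and 758 CPM in WT against 301, 242, 252 and 353 CPM among CaMKK2 KO mice, for a log2 fold change of -1.11 (SE 0.153, adjusted p = 0.0033). The groups were well apart, WT mouse 4 was the highest, and the call held under every alternative and without any 1 mouse. In TAM Atf3 stood at 210.5, 185, 270.3 and 265 CPM in WT against 134, 167, 143 and 129 CPM among CaMKK2 KO mice, for a log2 fold change of -0.70 (SE 0.141, adjusted p = 0.0343). That difference was smaller and its call was lost with TMM scaling (adjusted p = 0.0734), with a stricter gate (0.0514) and without WT mouse 3 (0.0783), WT mouse 4 (0.103), CaMKK2 KO mouse 1 (0.0914) or CaMKK2 KO mouse 4 (0.0939). In monocytes Atf3 split the WT mice. WT mice 1 to 4 had 174, 371, 905 and 863 CPM in classical and 71.6, 237, 944 and 540.2 CPM in non-classical monocytes, with mice 3 and 4 above mice 1 and 2 in both. The CaMKK2 KO mice spread less, at 510.5, 518, 319 and 403 CPM in classical and 551, 363, 225 and 442 CPM in non-classical monocytes, and overlapped the WT mice. Monocyte-TAM had the same split in WT mice, at 233, 247, 564 and 487 CPM, against 180.1, 232, 153 and 196 CPM among CaMKK2 KO mice (log2 fold change of -1.01, adjusted p = 0.102). There each CaMKK2 KO mouse lay below each WT mouse, though barely (232.3 against 232.6 CPM), and DESeq2 gave an adjusted p of 0.0243.

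**Figure D3:**
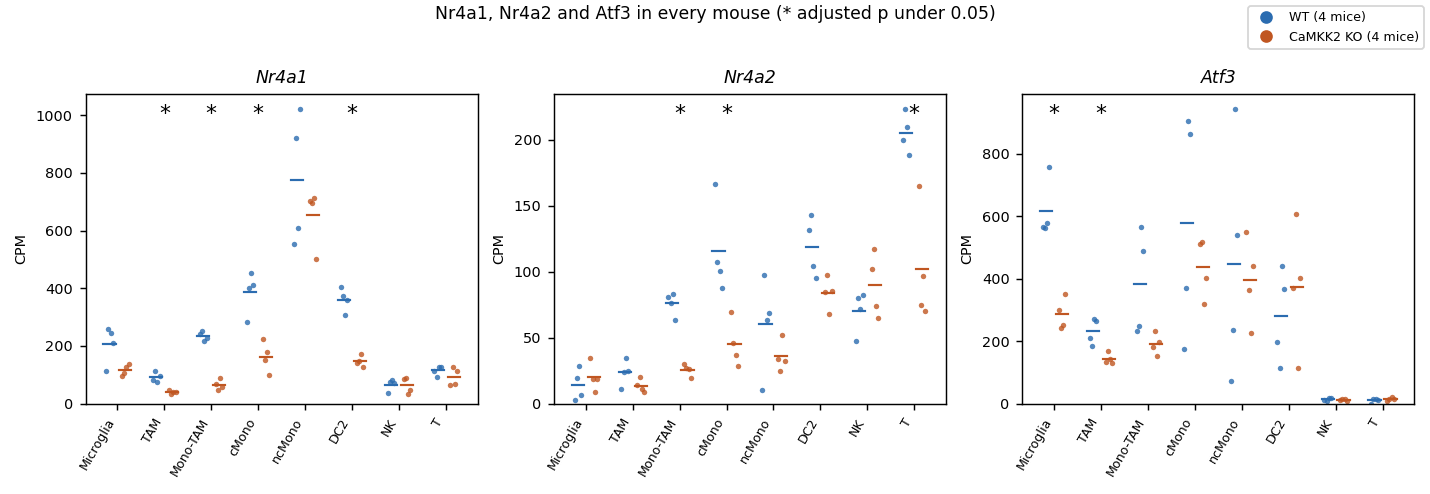
Nr4a1, Nr4a2 and Atf3 in CPM in each mouse (points) of 8 immune classes, WT in blue and CaMKK2 KO in orange, with a line at the mean of the 4 mice. A star marks an adjusted p under 0.05, and under each star every CaMKK2 KO point lies below the WT points. Nr4a1 in non-classical monocytes, from 503 to 1023 CPM over both genotypes, overlaps.

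Egr1, the zinc finger factor, did not pass in any class, though 6 of 10 tests had an unadjusted p under 0.05 and DESeq2 called 2. In Monocyte-TAM it stood at 295, 261, 77.5 and 105 CPM in WT against 75.8, 61.5, 65.4 and 52.0 CPM among CaMKK2 KO mice (log2 fold change of -1.51, adjusted p = 0.0703). WT mice 1 and 2 were above WT mice 3 and 4, the reverse of the split for Atf3. TAM showed it too, at 241, 132, 81.0 and 77.9 CPM in WT against 96.9, 74.9, 56.4 and 39.8 CPM in CaMKK2 KO mice. DC2 had 548 ± 142 and 264 ± 137 CPM (adjusted p = 0.119). In T cells Egr1 was at 109, 88.9, 84.2 and 74.7 CPM in WT against 146, 164, 90.0 and 172 CPM among CaMKK2 KO mice (log2 fold change of 0.73, adjusted p = 0.0692). Microglia, with the most Egr1, overlapped at 1556 ± 341 and 1261 ± 147 CPM.

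The core AP-1 subunits did not pass in any class. Fos stood at 1567, 1741, 1679 and 2005 CPM in TAM of WT and 1593, 1736, 1581 and 1883 CPM in TAM of CaMKK2 KO mice, and Jun at 985 ± 123 and 934 ± 154 CPM (SD, n = 4). Junb in TAM was at 945 ± 58.7 and 899.9 ± 128 CPM, and all 3 overlapped between genotypes. In Monocyte-TAM, by contrast, each CaMKK2 KO mouse lay below each WT mouse for Fos, at 2822 ± 283 and 2251 ± 142 CPM (log2 fold change of -0.33, adjusted p = 0.224), and for Junb, at 1585 ± 77.5 and 1260.1 ± 144 CPM (log2 fold change of -0.33, adjusted p = 0.209), and neither passed. The Junb value farthest from 0 was in DC2, at 2358, 2078, 2197 and 2262 CPM in WT against 1382, 1887, 1187 and 1503 CPM in CaMKK2 KO mice, without overlap (log2 fold change of -0.58, adjusted p = 0.0666). Fosb was at 796 ± 89.7 CPM in microglia of WT and 975 ± 65.6 CPM in CaMKK2 KO mice, each of which lay above each WT mouse (adjusted p = 0.234), and at 219 ± 59.4 and 338 ± 96.1 CPM in NK cells (adjusted p = 0.136). Fos in NK cells was at 159, 192, 359 and 323 CPM in WT against 404, 607, 256 and 437 CPM among CaMKK2 KO mice (log2 fold change of 0.71, adjusted p = 0.16). Across the 10 classes the log2 values of Fosb ran from 0.01 to 0.70, of Fos from -0.33 to 0.71, of Jun from -0.44 to 0.40 and of Junb from -0.58 to 0.23, and no call was made. At an unadjusted p under 0.05 there were 5, 2, 3 and 3 tests in that order, and DESeq2 called Junb in 1 class and the others in 0.

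Dusp1 and Ier2, the phosphatase and the nuclear protein, were not called either. Dusp1 in TAM was at 889, 663, 657 and 777 CPM in WT against 507, 739, 685 and 868 CPM in CaMKK2 KO mice, fully overlapping, and its smallest adjusted p was 0.282, in B cells (0 of 10 tests at an unadjusted p under 0.05 and 0 by DESeq2). Ier2 in microglia was at 1163, 1181, 583 and 609 CPM in WT against 456, 476, 575 and 342 CPM in CaMKK2 KO mice, with WT mice 1 and 2 high as for Egr1 (log2 fold change of -0.94, adjusted p = 0.0826). In TAM Ier2 was at 162 ± 54.8 and 130.4 ± 21.8 CPM. Ier2 had 3 tests at an unadjusted p under 0.05, and DESeq2 called 0.

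Several measures of the gates moved with genotype beside these calls. In DC2 the summed classical monocyte markers were at 640.0 to 1703 CPM in WT against 2311 to 4648 CPM in CaMKK2 KO mice, without overlap, and 1 of 5 tested markers was called higher. The defining markers of classical monocytes were thus not at 0 in this gate. The 7 markers of DC2 itself were there at 1109 to 1722 CPM in WT and 1205 to 2137 CPM in CaMKK2 KO mice. In each CaMKK2 KO mouse they summed to less than the classical monocyte markers did. In Monocyte-TAM the 9 microglia markers were at 938 to 1049 CPM in WT against 477 to 874 CPM in CaMKK2 KO mice, with 1 of 7 tested called lower. Of the 9 classical monocyte markers there, 2 were called lower, though their sums overlapped (7267 to 8527 and 6354 to 9430 CPM). Summed TAM markers were at 21227 to 21582 CPM in WT against 15582 to 20953 CPM in CaMKK2 KO mice in TAM. Classical monocyte markers in TAM overlapped, at 909 to 1810 and 971 to 4108 CPM, with 1 of 8 tested called higher and 1 lower. Microglia markers in TAM overlapped too (1156 to 1379 and 611 to 1199 CPM), with 1 of 8 tested called lower. In classical monocytes 3 of their own 9 markers were called lower, with summed levels of 15339 to 24054 CPM in WT and 12169 to 15622 CPM in CaMKK2 KO mice, which overlapped. Markers of T cells (4.06 to 26.9 CPM in WT, 31.9 to 40.9 CPM in CaMKK2 KO mice), NK cells (8.12 to 15.2 and 18.2 to 22.0 CPM) and DC1 (183 to 430.3 and 435 to 523 CPM) were higher there in CaMKK2 KO mice without overlap. The single markers of T and NK cells had too few UMIs to be tested. At similar low levels, T cell markers in TAM (13.5 to 15.3 and 22.9 to 30.1 CPM) and NK cell markers in Monocyte-TAM (4.63 to 13.1 and 14.0 to 18.9 CPM) and DC2 (8.46 to 16.5 and 16.9 to 23.2 CPM) were higher without overlap as well. Markers of cells that are not immune were lower in DC2 (62.3 to 76.1 CPM in WT, 22.1 to 56.3 CPM in CaMKK2 KO mice), and those of basophils in microglia (0.349 to 2.15 CPM in WT, 0 in each CaMKK2 KO mouse). Each of these separations between genotypes had an exact two-sided permutation p of 0.0286. The median mitochondrial share per cell was 1.82 to 2.55% in WT and 1.03 to 1.89% in CaMKK2 KO mice in Monocyte-TAM, and 2.32 to 2.74% and 1.58 to 2.45% in classical monocytes. The part of these measures in the differences of Nr4a1, Nr4a2 and Atf3 was not tested. Median UMIs per cell overlapped between genotypes in each of these classes, among them TAM (15818 to 17465 and 13877 to 17873) and Monocyte-TAM (13123 to 13997 and 12402 to 14635).

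The share of cells with at least 1 UMI of a gene was compared after thinning every cell to 4000 UMIs, which left out 275 WT and 273 CaMKK2 KO cells that were shallower. In Monocyte-TAM Nr4a1 was seen in 45.5 ± 1.83% in WT and 17.4 ± 4.21% in CaMKK2 KO mice (SD, n = 4), against 72.5 and 39.9% without thinning. Classical monocytes had 63.4 ± 4.3% in WT and 33.8 ± 6.36% in CaMKK2 KO mice (unthinned 81.3 and 52.5%), and DC2 had 58.1 ± 7.19% in WT and 37.4 ± 0.391% in CaMKK2 KO mice (unthinned 78.9 and 62.2%). TAM had 23.1 ± 3.6% in WT and 13.7 ± 4.00% in CaMKK2 KO mice (unthinned 45.9 and 28.4%). In these 4 classes every CaMKK2 KO mouse was below every WT mouse, each with an exact two-sided permutation p of 0.0286. Nr4a2 in Monocyte-TAM was seen in 16.1 ± 3.96% in WT and 8.02 ± 1.71% in CaMKK2 KO mice (unthinned 27.6 and 17.2%), the same p. B cells, where Nr4a2 was lowest, had it in 2.98 ± 3.95% in WT and 1.92 ± 2.26% in CaMKK2 KO mice, all at the same depth. These shares rest on few B cells, with 4, 28, 12 and 5 deep enough in WT mice 1 to 4. CaMKK2 KO mice 1 to 4 had 30, 46, 17 and 70. Atf3 in microglia overlapped in share, with 55.7 ± 6.11% in WT and 48.2 ± 6.58% in CaMKK2 KO mice, while T cells, where Atf3 was lowest, had 2.98 ± 2.07% in WT and 3.72 ± 0.446% in CaMKK2 KO mice. Over the 100 shares compared, 12 had an unadjusted p under 0.05 and 0 passed Benjamini-Hochberg adjustment (smallest 0.238) at a smallest possible p of 0.0286.

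**Figure D4:**
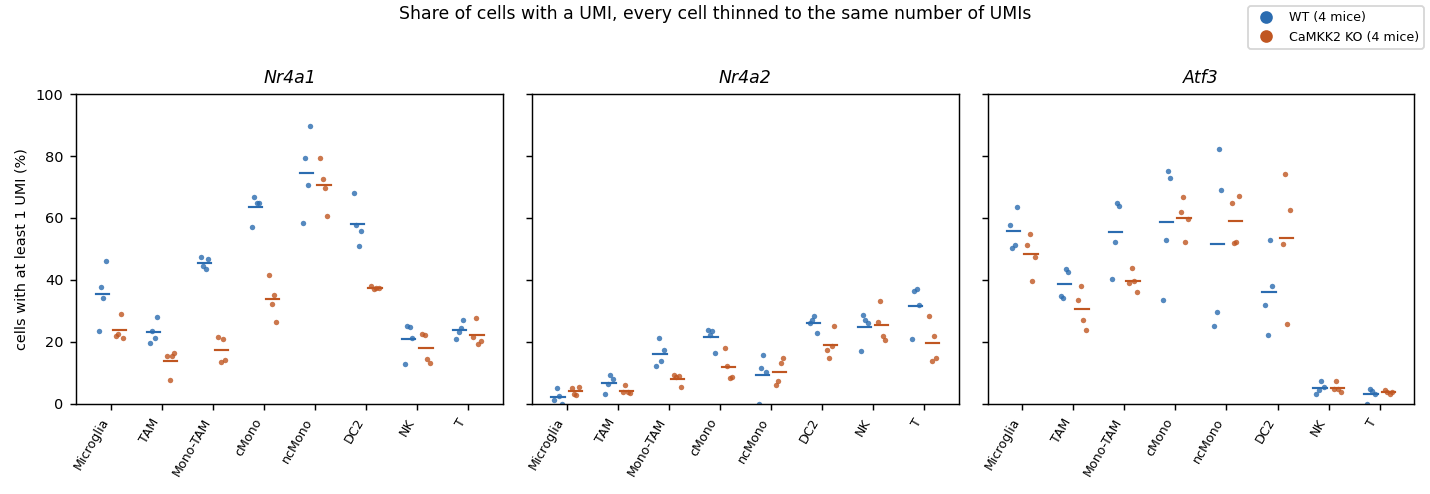
Percent of cells with at least 1 UMI of Nr4a1, Nr4a2 and Atf3 in each mouse (points) of 8 immune classes, every cell thinned to 4000 UMIs, WT in blue and CaMKK2 KO in orange with a line at the mean. Nr4a1 in Monocyte-TAM averages 45.5% in WT and 17.4% in CaMKK2 KO mice, while Atf3 in T cells is at 2.98% and 3.72%.

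Whether the genotype difference of a member differed between classes was tested by an interaction of class and genotype in edgeR with the mouse as a block, for TAM against 4 other classes. Egr1 differed between TAM and T cells, by 1.38 on the log2 scale as T cells minus TAM (SE 0.289, adjusted p = 0.0466), with TAM at 133 ± 76.0 and 67.0 ± 24.6 CPM and T cells at 89.2 ± 14.5 and 143 ± 37.1 CPM (WT, then CaMKK2 KO mice). Nr4a2 differed between TAM and NK cells, by 1.12 as NK cells minus TAM (SE 0.216, adjusted p = 0.0243). These were 1 of 10 members in each comparison, against 0.561% of all genes for T cells and 1.23% for NK cells. Neither held in DESeq2 (adjusted p = 0.0507 and 0.103). The Egr1 value held only in the fits without CaMKK2 KO mouse 1 or 3, with an adjusted p of 0.0994, 0.151, 0.0682 and 0.0934 without WT mice 1 to 4 and of 0.0667 and 0.0726 without CaMKK2 KO mice 2 and 4. The Nr4a2 value was lost without WT mouse 2 (0.0655), WT mouse 4 (0.0695), CaMKK2 KO mouse 1 (0.0909) or CaMKK2 KO mouse 4 (0.0657). Against microglia and classical monocytes 0 of 10 members were called, with 3 and 1 at an unadjusted p under 0.05 and 0 by DESeq2, where 0.0636% and 0.171% of all genes were. For Nr4a1 the difference between TAM and non-classical monocytes was not tested.

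Other immediate early genes were read from a list of 41, which gave 317 tests over the classes, with 9 called lower and 2 higher in CaMKK2 KO mice. Over the tests of all genes in the same 10 classes, where CD8 T cells also count among T cells, 0.818% were called lower and 0.901% higher. Nfkbiz, an atypical IkB protein, fell in microglia from 542, 585, 471 and 535 CPM in WT to 250.2, 219.8, 322 and 168 CPM in CaMKK2 KO mice, without overlap (log2 fold change of -1.14, adjusted p = 0.00615), and this held without any 1 mouse. Nfkbid, its relative, fell in Monocyte-TAM from 74.7 ± 10.4 to 44.1 ± 8.04 CPM (log2 fold change of -0.75, adjusted p = 0.031), in classical monocytes from 95.2 ± 17.8 to 50.7 ± 2.61 CPM (log2 fold change of -0.90, adjusted p = 0.0169) and in CD8 T cells from 41.5 ± 7.3 to 18.8 ± 3.82 CPM (log2 fold change of -1.05, adjusted p = 0.0355). Nr4a3, the third NR4A receptor, fell in Monocyte-TAM from 26.1 ± 9.85 to 11.1 ± 1.4 CPM (log2 fold change of -1.29, adjusted p = 0.0271). Rhob, a small GTPase, and Ier5, a relative of Ier2, fell there too, from 147 ± 25.4 to 93.2 ± 3.65 CPM and from 318 ± 31.5 to 218 ± 14.5 CPM. Btg2, an antiproliferative gene, fell in DC2 from 1488 ± 199 to 938 ± 132 CPM (log2 fold change of -0.67, adjusted p = 0.0403), and Ier5l fell in T cells from 92.0 ± 56.2 to 30.2 ± 15.1 CPM, with overlap. Higher in NK cells of CaMKK2 KO mice were Jund, an AP-1 subunit, from 864 ± 46.6 to 1301 ± 247 CPM (log2 fold change of 0.59, adjusted p = 0.0236), and Klf6, a Krüppel-like factor, from 173 ± 23.4 to 287 ± 65.8 CPM (log2 fold change of 0.72, adjusted p = 0.0305). Of these 11 calls, only that of Nfkbiz held in all 8 fits that left out a mouse, and the others held in 1 to 5.

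A list of 28 genes upstream of the response named Srf, Creb1, Camk4 and the MAP kinases among others. From 2 of them in B cells to 24 in TAM had enough UMIs. In these 177 tests 0 were called (18 at an unadjusted p under 0.05, 1 by DESeq2). A list of 10 AP-1 partners, which named Batf, gave 58 tests with 0 called (13 at an unadjusted p under 0.05). DESeq2 called 4 of these, all higher in CaMKK2 KO mice. Of all genes, 0.818% were called lower and 0.901% higher. Of 11 heat shock genes, which handling also induces, 6 of 94 tests were called (all genes, 0.818%), all lower in CaMKK2 KO mice and all in Hspa1a or Hspa1b, the inducible HSP70 genes that are near-identical copies, so that reads may be split between them. Hspa1a stood in NK cells at 41.8, 31.3, 62.5 and 106 CPM in WT against 4.5, 15.5, 10.8 and 5.89 CPM among CaMKK2 KO mice (log2 fold change of -2.59, adjusted p = 0.00265). The largest difference was that of Hspa1b in non-classical monocytes, at 808, 167, 280.0 and 414 CPM in WT against 22.7, 40.9, 84.4 and 31.0 CPM among CaMKK2 KO mice (log2 fold change of -3.24, adjusted p = 0.0126). Hspa1a fell there from 608 ± 341 to 134 ± 4.85 CPM (log2 fold change of -2.16, adjusted p = 0.0208). Hspa1b fell in Monocyte-TAM from 74.0 ± 34.4 to 21.8 ± 11 CPM (log2 fold change of -1.71, adjusted p = 0.0481) and in DC2 from 146 ± 38.5 to 51.8 ± 19.5 CPM (log2 fold change of -1.55, adjusted p = 0.0257), and Nr4a1 was called lower in both. In NK cells, where Hspa1b was called as well, and in non-classical monocytes no member was called. TAM and classical monocytes, in which Nr4a1 fell, had no heat shock call. Over the 94 heat shock tests, 23 had an unadjusted p under 0.05 and DESeq2 called 10. The median heat shock gene still lay at a log2 value of -0.31 in TAM (all genes -0.09), with 9 of 11 below 0. It lay at -0.27 in Monocyte-TAM (all genes -0.05), -0.02 in classical monocytes (all genes -0.01) and 0.08 in DC2 (all genes 0.05). Summed over the 11 genes, heat shock levels overlapped between genotypes in Monocyte-TAM (3595 to 6081 CPM in WT, 3532 to 4676 CPM in CaMKK2 KO mice), TAM (4029 to 5580 and 4148 to 4913 CPM) and DC2 (3325 to 5685 and 3882 to 6569 CPM). WT mice 1 to 4 stood at 3595, 3882, 5476 and 6081 CPM in Monocyte-TAM and at 4029, 4355, 5098 and 5580 CPM in TAM. In both classes WT mice 3 and 4 were above every CaMKK2 KO mouse. Classical monocytes had 3879, 3320, 5193 and 6323 CPM in WT mice 1 to 4. This is the split given above for Atf3, and the reverse of that for Egr1. The part of the heat shock genes in the member differences was not tested.

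Across classes the members followed one another to different degrees. Over the 72 sums of 9 classes and 8 mice, on log2(CPM + 1), the most similar nonmember among 11053 genes was Zfp36 for Fos (Pearson r = 0.95), for Jun (r = 0.879) and for Junb (r = 0.843). It was Gcnt2 for Dusp1 (r = 0.912), Csf2rb for Atf3 (r = 0.932), Btg2 for Ier2 (r = 0.818), Cd34 for Egr1 (r = 0.787), Cst3 for Fosb (r = 0.782), S100a6 for Nr4a2 (r = 0.786) and Ear2, a gate gene of non-classical monocytes, for Nr4a1 (r = 0.786). The sums of a mouse share its library, so these values are a description. Nr4a2 had no member above r = 0.5, its best being Dusp1 (r = 0.246), whereas Junb had 8. Within 2166 single TAM, the 45 pairs of members had r from 0.0699 to 0.718 with a median of 0.378. The counts were scaled to the total of each cell but not thinned to 1 depth, and the 8 mice of both genotypes were pooled. The nonmembers closest to the members' sum there were Zfp36 (r = 0.747), Jund (0.652), Btg2 (0.622), Malat1 (0.515), Il1b (0.512), Ier5 (0.508), Klf6 (0.496), Btg1 (0.488), Mcl1 (0.482) and Pim1 (0.473), of which Zfp36, Jund, Btg2, Ier5, Klf6, Btg1 and Mcl1 were on the list of other immediate early genes.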

How the data were processed

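Single-cell RNA was sequenced in 1 WT and 1 CaMKK2 KO library, each with a hashtag library. The deposited files hold raw UMI counts per gene and barcode, which the authors made with Cell Ranger 4.0.0 on mm10, with STAR 2.7.5c and bcl2fastq 2.20 also named in the submitters' notes. HTODemux (Seurat 5.3.0, quantile 0.99) assigned 5974 of 6689 WT and 6696 of 7271 CaMKK2 KO barcodes to 1 mouse, and its doublets were left out. Cells with under 200 genes or outside 3 median absolute deviations were removed, and no further doublet caller was run. Among the kept cells, 350 WT and 356 CaMKK2 KO cells passed gates in a combination that names no class. A further 319 WT and 354 CaMKK2 KO cells passed no gate. All of these entered no class. The members and lists were chosen with earlier results of these data known, and gate thresholds were set after the data were seen. Counts summed per mouse and class (at least 10 cells in each mouse, genes with at least 200 UMIs) were tested in edgeR 4.0.16 on total counts, without a replicate block, at an adjusted p of 0.05 by Benjamini-Hochberg. The members, the genes of 4 lists that passed, and the genes most like each member were named. The labels do not say whether mice shared a litter or cage. Alternatives were DESeq2 1.42.0, TMM, limma 3.58.1 on cell means, other filters and gates, outlying cells kept and each mouse left out. Scripts were tested on simulated data. The spread between mice sets the precision. Software was R 4.3.3, Python 3.11.15, numpy 2.4.6, pandas 2.3.3 and scipy 1.17.1. Promoters came from RefSeq on GRCm38.p6 and gene positions from GENCODE M21.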

Additional observations from a re-analysis of the deposited data

Results flagged for a closer look

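Among 200 groups of 4 mice, 7 held 1 mouse apart from the other 3 by Dixon's test, where chance gives about 10. Atf3 in microglia was at 758 CPM in WT mouse 4 and 562 to 579 CPM in the other WT mice, and Fosb in TAM at 410.3 CPM in CaMKK2 KO mouse 4 against 521 to 534 CPM. Junb in Monocyte-TAM was at 1702 CPM in WT mouse 2 against 1545 to 1548 CPM. Nr4a1 was at 503 CPM in non-classical monocytes of CaMKK2 KO mouse 4 against 695 to 713 CPM, and at 35.4 CPM in NK cells of WT mouse 1 against 72.7 to 80.3 CPM. Egr1 in CD8 T cells was at 124 CPM in WT mouse 1, on 14 cells, against 52.4 to 63.1 CPM. Ier2 in B cells was at 186 CPM in CaMKK2 KO mouse 4 against 336 to 349 CPM. CaMKK2 KO mouse 4 accounts for 3 of the 7 and WT mouse 1 for 2. The effect of genotype differed between classes for Nr4a2, by 1.12 on the log2 scale as NK cells minus TAM, and for Egr1, by 1.38 as T cells minus TAM, both by the interaction test in edgeR.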

How the results depend on the processing

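No paired analysis was possible because the labels number both libraries 1 and hashtag numbers mark different mice in each genotype. Of the 9 called fold changes, none changed sign. Over the fits without 1 mouse the log2 value ran from -0.79 to -0.62 for Atf3 in TAM, -1.46 to -1.09 for Nr4a1 and -1.57 to -1.10 for Nr4a2 in classical monocytes, and -1.33 to -0.87 for Nr4a2 in T cells. Calls were lost for Atf3 in TAM with TMM (-0.61) and a stricter gate (-0.70), for Nr4a2 in Monocyte-TAM with a stricter gate (-1.47), in classical monocytes with outlying cells kept (-1.27) and a stricter gate (-1.44), and in T cells with limma (-1.02). Of 86 uncalled member values, 29 changed sign somewhere (all between -0.35 and 0.49) and 16 were called under an alternative. Member calls numbered 14 with DESeq2, 26 with no filter on low counts, which tests more genes, and 5 to 12 without 1 mouse, 5 of them without WT mouse 4. The interaction counts were 0 with DESeq2 (0.97 for Nr4a2, 1.35 for Egr1) and 0 to 4 without 1 mouse (0.91 to 1.24 and 1.14 to 1.56). Thinning to 1 depth left 12 neighbouring pairs at the smallest p and so 0 called, since 13 are needed. The cause of these changes was otherwise not tested.

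All called genes were counted under each alternative in the order microglia, TAM, Monocyte-TAM, classical monocytes, non-classical monocytes, DC2, NK cells, T cells, CD8 T cells and B cells. The main counts were 85, 207, 129, 128, 18, 46, 191, 80, 43 and 2. DESeq2 gave 143, 498, 241, 268, 42, 136, 230, 162, 65 and 47. No filter gave 383, 481, 406, 360, 236, 372, 691, 504, 358 and 243. A minimum of 20 UMIs gave 135 in microglia, 45 in non-classical monocytes, 89 in DC2, 290 in NK cells, 139 in T cells, 119 in CD8 T cells and 63 in B cells. With limma there were 69 in classical monocytes, 11 in non-classical monocytes, 29 in DC2, 119 in NK cells, 35 in T cells, 10 in CD8 T cells and 9 in B cells. With outlying cells kept there were 398 in NK cells, 151 in T cells and 1 in B cells, and TMM gave 132 in T cells. A stricter gate gave 46 in Monocyte-TAM, 1 in non-classical monocytes, 19 in DC2 and 17 in B cells, and could not be fitted in CD8 T cells. Without 1 mouse they ran from 36 to 100, 84 to 432, 85 to 188, 42 to 162, 10 to 24, 18 to 208, 75 to 857, 33 to 109, 17 to 61 and 1 to 72 in the same order. Without CaMKK2 KO mouse 3 they reached 432 in TAM, 208 in DC2 and 857 in NK cells. Depth left Nr4a2 untested in microglia, with 124 UMIs over all mice.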
